A study of Mus musculus with 12 samples.

Results

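Genes for the receptors of glutamate and of gamma-aminobutyric acid (GABA), the main excitatory and inhibitory transmitters of the brain, were examined in bulk RNAseq libraries of sorted mouse glioblastoma (GBM) cells. The set held every gene of the deposited expression table whose symbol begins Gria, Grid, Grik or Grin with a digit, Grm with a digit, Gabr with a subunit letter, or is Gabbr1 or Gabbr2. There were 35 such genes among 18180, namely 34 receptor genes and Grid2ip (delphilin, a synaptic scaffold protein and no receptor itself), which is given apart. By class the 34 were 4 AMPA, 5 kainate, 6 NMDA, 2 delta, 5 metabotropic glutamate, 10 GABA-A and 2 GABA-B receptor genes.

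Tumors were started in adult mice of a mixed background (C57Bl/6J, Balb/cJ, 129S4, SJL and FVBN/J) by intracranial injection of a Cre lentivirus, which switched on a human EGFR transgene and a luciferase reporter in animals that lacked Cdkn2a from birth. All 4 groups shared the same alleles and were taken at end stage. EGFR+ cells of 3 tumors (T3, T4 and T5) were stained for PDGFR or for Galectin-1 and sorted into PDGFRA+, PDGFRA-, GAL1+ and GAL1- cells (PDGFR+, PDGFR-, Gal1+ and Gal1- in the labels), which gave 12 libraries with 1 per population and tumor. The study's text describes the sorted cells as CD45-, while its account of this sort names only the antibodies above. Since the PDGFR and Galectin-1 stains were separate, a cell of the kind found in the PDGFRA+ gate can also fall in the GAL1- gate.

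Ionotropic glutamate receptors are channels built of 4 subunits. AMPA receptors carry fast excitation, NMDA receptors require the subunit encoded by Grin1, kainate receptors combine low-affinity (Grik1, Grik2, Grik3) and high-affinity (Grik4, Grik5) subunits, and delta receptors bind cerebellins at synapses. Metabotropic receptors signal through G proteins, GABA-A receptors are chloride channels, and GABA-B receptors are dimers of GABBR1 and GABBR2. Oligodendrocyte precursor cells (OPCs), which are marked by Pdgfra and Cspg4, carry AMPA and GABA-A receptors and receive synapses from neurons.

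The pore-lining segment is where AMPA and kainate subunits differ in a way that matters for what flows through the channel, so the coding sequence around its Q/R codon is shown for 7 of these genes. In GRIA2, and in part in GRIK1 and GRIK2, the glutamine codon is changed to that of arginine by RNA editing, which lowers the passage of calcium. The windows below are 33 coding bases, 5′ to 3′, from the GENCODE M21 transcripts of GRCm38, with the Q/R codon in capitals.
Gria1: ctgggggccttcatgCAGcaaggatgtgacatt
Gria2: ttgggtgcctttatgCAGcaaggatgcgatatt
Gria3: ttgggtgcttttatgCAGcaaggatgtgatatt
Gria4: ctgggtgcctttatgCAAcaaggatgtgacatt
Grik1: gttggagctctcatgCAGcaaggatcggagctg
Grik2: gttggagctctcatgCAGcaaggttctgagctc
Grik3: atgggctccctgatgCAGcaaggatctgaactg
The codon was codon 607 in Gria2, codon 600 in Gria1, codon 612 in Gria3 and codon 608 in Gria4, counted from the start codon. It read CAG in 6 of the 7 genes and CAA in Gria4. The windows of the other AMPA genes differed from that of Gria2 at 5 bases (Gria1), 2 bases (Gria3) and 4 bases (Gria4), and those of the kainate genes at 11 (Grik1), 12 (Grik2) and 10 bases (Grik3). Counts per gene do not show whether a transcript was edited.

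Values are log2 CPM (counts scaled to a common library size) as deposited, so that a difference of 1 is a 2-fold change in CPM, and a gene was called changed at a limma p under 0.05 after Benjamini-Hochberg adjustment across the 18180 genes. Levels of different genes were compared only as CPM per kb of exon. The libraries held between 9851175 and 24117541 reads in genes. Pdgfra RNA was at 9.95 to 10.81 in PDGFRA+ and 10.34 to 10.81 in GAL1- libraries, at 6.74 to 8.95 in GAL1+ libraries, and at 10.11, 8.62 and 7.36 in the PDGFRA- libraries of T3, T4 and T5. Lgals1, which encodes Galectin-1, was 1.29 higher in GAL1+ than in GAL1- libraries (SE 0.23, adjusted p = 0.000967). The library of T5 PDGFRA- cells stood nearest the GAL1+ libraries, with Egfr at 8.16 against 9.93 to 10.65 in the other PDGFRA+, PDGFRA- and GAL1- libraries. Pdgfra, the gene of the PDGFR stain, is among the 10 OPC markers used here. Summed over these 10 the CPM was 5461 to 7974 in PDGFRA+, 2137 to 5828 in PDGFRA-, 913 to 2528 in GAL1+ and 7047 to 8279 in GAL1- libraries. Summed over 8 leukocyte markers it was 591 to 1396, 637 to 2814, 2571 to 3723 and 75 to 201 in the same order, although the cells are described as CD45-.

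These GBM cells carried AMPA and kainate receptor RNA and that of the metabotropic gene Grm5 in quantity. They carried little RNA of most NMDA subunits, several GABA-A subunits and the other metabotropic receptors. Per kb of exon and averaged over the 12 libraries, Grik5 (25.1 CPM per kb), Gria2 (23.7), Gria3 (21.7), Grm5 (18.6), Gria4 (14.5) and Grik3 (12.6) led the set. The lowest levels per kb were those of Grin2a (0.072), Gabrb1 (0.073) and Grin2b (0.076). Grm6 was at 3 reads or fewer in 5 libraries, Grin2a in 2, and Gabra4 and Gabrb1 in 1 each.

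**Figure D1:**
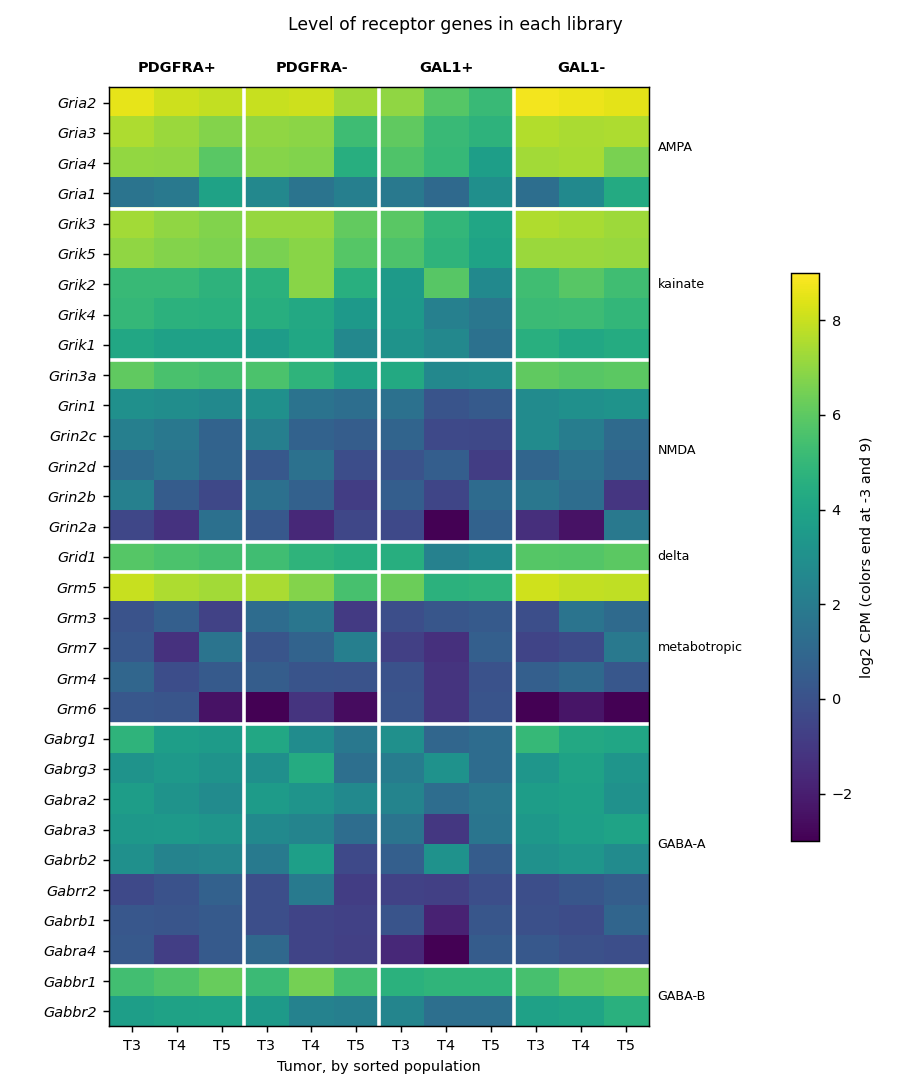
Level of 31 of the 34 receptor genes (rows, grouped by class and ordered by mean level) in each of the 12 libraries (columns, T3, T4 and T5 within each sorted population), as log2 CPM on a color scale that ends at -3 and 9. Gria2 is at 8.51 to 8.78 in the GAL1- libraries and at 5.12 to 7.0 in the GAL1+ libraries, and the T4 PDGFRA- and T4 GAL1+ columns stand out for Grik2 and Gabrb2.

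Of the 4 pairs of populations compared, GAL1+ with GAL1- cells had the most receptor genes called. In GAL1+ cells 22 of the 34 receptor genes were lower than in GAL1- cells, 1 (Grm6) was higher and 11 were not called. Over all genes 29.3% were called lower and 28.9% higher in this comparison, and the median difference was -1.97 for the receptor genes against -0.03 for all genes. For 22 receptor genes every GAL1+ library lay below every GAL1- library, which held for 30.5% of all genes. All 23 called receptor genes had the same sign in T3, T4 and T5, and the difference was smaller in T3 (median -1.39) than in T4 (-2.32) and T5 (-2.31). For Grik2 the T4 difference was only -0.003.

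Compared with GAL1+ cells, PDGFRA+ cells were higher in 20 of the 34 receptor genes and lower in none. The background was 20.9% of all genes higher and 17.0% lower, and the median difference was 1.57 for the receptor genes against 0.01 for all genes. Every PDGFRA+ library lay above every GAL1+ library for 20 of the 34, against 23.5% of all genes. Both comparisons use the same 3 GAL1+ libraries, so they are no independent observations of the GAL1+ level.

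Between PDGFRA+ and PDGFRA- cells no receptor gene was called by limma, and of all genes 0.0% were called. At an unadjusted p under 0.05 there were 10 receptor genes higher in PDGFRA+ cells and none lower, against 6.02% and 5.74% of all genes. Without T5, whose PDGFRA- library is described above, 3 receptor genes had an unadjusted p under 0.05, and without T4 there were 12. The share of all genes in those smaller fits is not given, so these counts cannot be set against a background. The 95% intervals of the 34 differences had a median half-width of 0.825.

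Between PDGFRA+ and GAL1- cells, which came from separate stains, no receptor gene was called, while 8.26% of all genes were higher in PDGFRA+ cells and 0.011% were lower. Of the 34 differences 28 were below 0, with a median of -0.30. Only Grm6 had an unadjusted p under 0.05 (2.87 higher in PDGFRA+ cells, SE 1.00, adjusted p = 0.145). Grm6 has a row through libraries in which it was high, as given with that gene below. Fitted to these 6 libraries alone, 8 receptor genes were called lower in PDGFRA+ cells, namely Gria2, Gria4, Grik1, Grik2, Grik3, Grik5, Grm5 and Gabrg1, chosen here after their values were seen, against 5.51% of all genes called lower in that fit. The differences themselves did not move. In that comparison all 8 leukocyte markers were called higher in PDGFRA+ cells (median 2.80). Their part in the receptor differences was not tested.

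**Figure D2:**
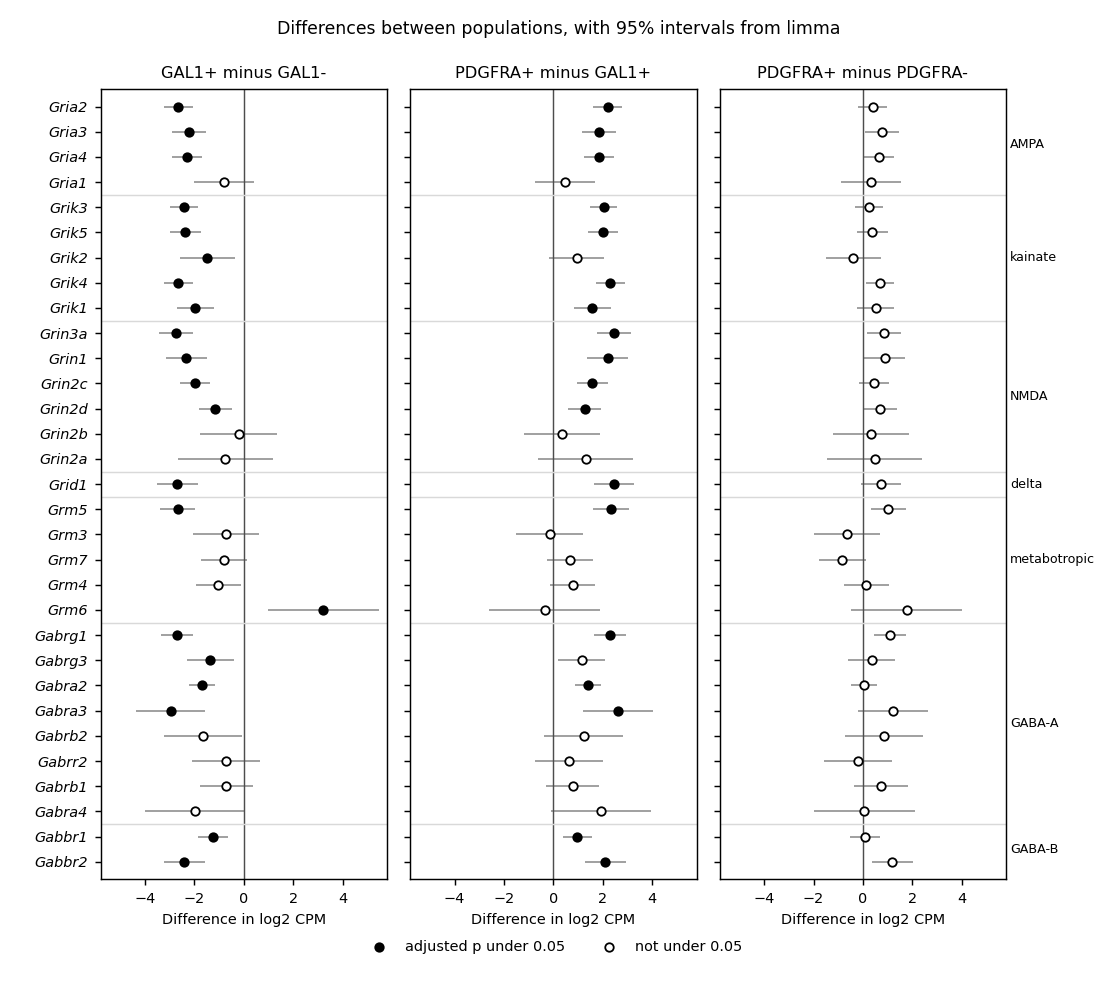
Difference in log2 CPM (points) with its 95% interval (lines) for 31 of the 34 receptor genes in 3 comparisons, with filled points for an adjusted p under 0.05. GAL1+ minus GAL1- lies left of 0 for 30 of the 31 genes, PDGFRA+ minus GAL1+ right of 0 for 29, and no point is filled for PDGFRA+ minus PDGFRA-.

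AMPA receptor genes were among the strongest of the set, and 3 of the 4 were lower in GAL1+ cells. Gria2, whose product governs calcium passage, was at 8.55, 8.09 and 7.89 log2 CPM in the PDGFRA+ libraries of T3, T4 and T5, at 8.0, 8.08 and 7.28 in PDGFRA-, at 7.0, 5.83 and 5.12 in GAL1+ and at 8.78, 8.64 and 8.51 in GAL1- libraries. The GAL1+ libraries were below all 9 others, and the PDGFRA+ and PDGFRA- libraries overlapped. Gria2 fell by 2.66 from GAL1- to GAL1+ cells (SE 0.27, adjusted p = 5.7e-05), a 6.31-fold change, and was 2.19 higher in PDGFRA+ than in GAL1+ cells (adjusted p = 0.00137).

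Gria3 was at 7.54, 7.19 and 6.77 in PDGFRA+, at 7.0, 6.94 and 5.25 in PDGFRA-, at 6.06, 5.13 and 4.75 in GAL1+ and at 7.62, 7.46 and 7.51 in GAL1- libraries. Here the T5 PDGFRA- library fell within the GAL1+ range. Gria3 was 2.21 lower (SE 0.30) and Gria4 2.30 lower (SE 0.27) in GAL1+ than in GAL1- cells, with adjusted p of 0.000243 and 0.000112. In PDGFRA+ cells they were 1.85 and 1.84 higher than in GAL1+ cells. Against PDGFRA- cells Gria3 differed by 0.77 (unadjusted p = 0.0313) and Gria4 by 0.63 (unadjusted p = 0.0421), neither past the adjusted threshold.

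Gria1 behaved otherwise. It was the lowest AMPA gene, with a mean of 1.98 to 2.79 in the 4 populations, and it was not called in any comparison. It was at 3.91, 2.99 and 4.32 in the T5 PDGFRA+, GAL1+ and GAL1- libraries against 1.10 to 2.71 in the T3 and T4 libraries of those populations. The PDGFRA- libraries went otherwise, at 2.61 in T3, 1.60 in T4 and 2.18 in T5.

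Summed over the 4 genes, AMPA RNA was 54.9 to 91.5 CPM per kb in PDGFRA+, 26.3 to 66.9 in PDGFRA-, 11.8 to 33.3 in GAL1+ and 87 to 104.5 in GAL1- libraries. Gria2 held 38.5% ± 3.17 (SD, n = 3) of that total for the PDGFRA+ libraries, 44.0% ± 10.8 for PDGFRA-, 32% ± 4.38 for GAL1+ and 39.6% ± 0.91 for GAL1-. Gria3 made up 36.7% ± 0.55, 32.1% ± 4.65, 38.6% ± 2.96 and 35.3% ± 2.93 in the same order. The Gria2 share was 28.2% to 36.8% in GAL1+ and 38.5% to 40.1% in GAL1- libraries, which did not overlap, and it was lower in GAL1+ cells by 3.29, 7.42 and 11.9 percentage points in T3, T4 and T5. An exact two-sided permutation test of 3 against 3 libraries gave p = 0.1, the smallest it can give, and 0.4 after adjustment over the 4 AMPA genes. The shares of the other AMPA genes overlapped between these populations. Gria1 had 11.7% of the AMPA total in the T5 GAL1+ library and 0.42% to 4.74% in the other 11 libraries.

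All 5 kainate receptor genes were lower in GAL1+ than in GAL1- cells, the only class of more than 2 genes in which every member was called. Grik5, the high-affinity subunit, was at 7.0, 6.78 and 6.65 in PDGFRA+, at 6.56, 6.88 and 5.83 in PDGFRA-, at 5.63, 4.79 and 3.97 in GAL1+ and at 7.19, 7.18 and 7.13 in GAL1- libraries. Grik3 was at 7.32, 6.99 and 6.73, at 7.11, 7.10 and 6.11, at 5.91, 4.96 and 4.08 and at 7.57, 7.41 and 7.26 in the same order. Both were lowest in the GAL1+ libraries without overlap with any other library.

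Grik3 fell by 2.43 (SE 0.25, adjusted p = 6.2e-05), Grik4 by 2.65 (SE 0.26, adjusted p = 5.3e-05), Grik5 by 2.37 (SE 0.27, adjusted p = 0.000103) and Grik1 by 1.97 (SE 0.34, adjusted p = 0.000837) from GAL1- to GAL1+ cells. Grik2 was 1.48 lower (SE 0.50, adjusted p = 0.0291), and it was the called gene whose groups overlapped. Its call was lost with limma fitted to the samples of the 2 groups only (adjusted p = 0.0608). In PDGFRA+ cells Grik4 was 2.30, Grik3 2.03, Grik5 2.01 and Grik1 1.57 higher than in GAL1+ cells, with adjusted p from 0.00137 to 0.00716. Against PDGFRA- cells only Grik4 had an unadjusted p under 0.05 (0.70 higher, unadjusted p of 0.0233, adjusted p of 0.361).

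Grik5 made up 53.6% ± 1.24 of kainate CPM per kb for PDGFRA+, 50.6% ± 2.64 for PDGFRA-, 48.3% ± 7.76 for GAL1+ and 52.7% ± 1.61 for GAL1- libraries (SD, n = 3). Grik3 made up 25.9% ± 1.60, 27.2% ± 3.79, 23.1% ± 4.22 and 26.2% ± 1.58 in the same order. In 10 of the 12 libraries the share of Grik2 lay between 4.54% and 7.99%. It was 17.3% in the T4 PDGFRA- and 30.3% in the T4 GAL1+ library, described with the other genes of T4 further on.

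**Figure D3:**
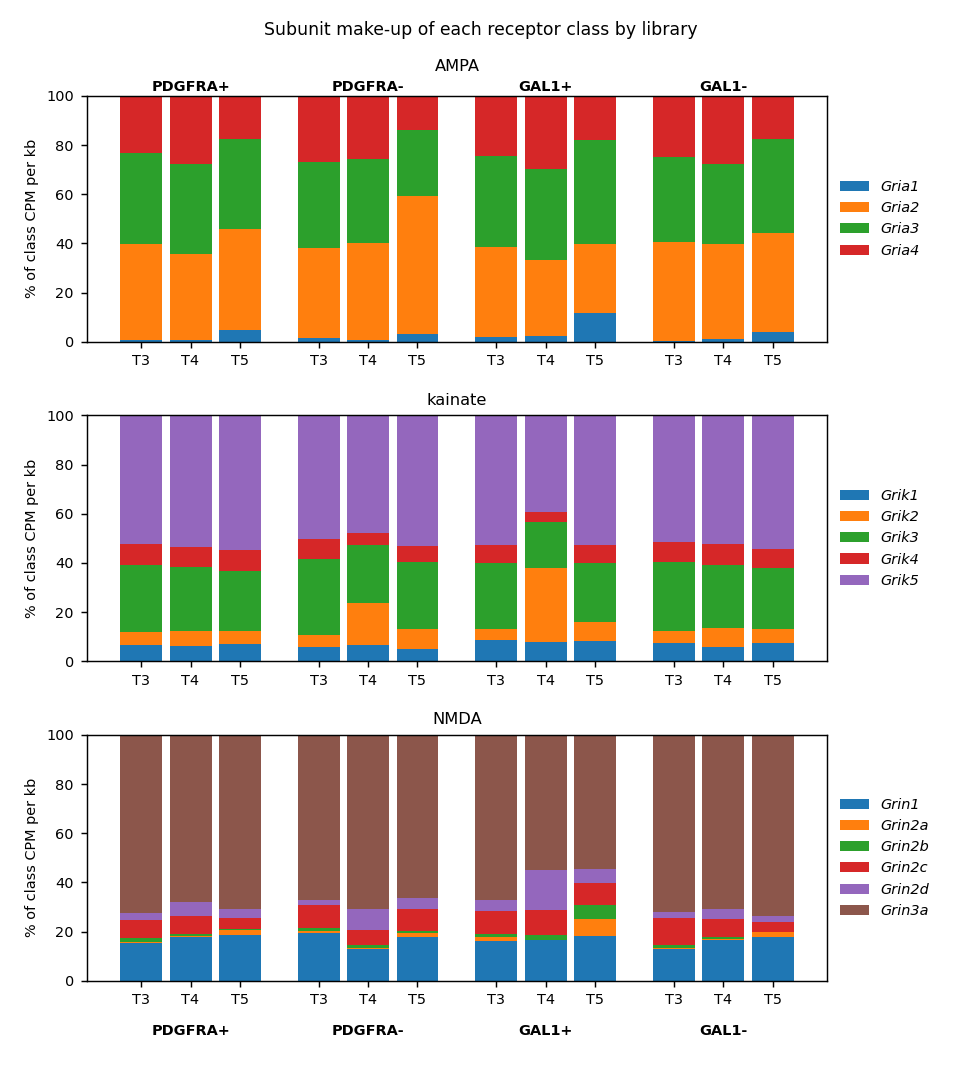
Share of each subunit gene in the summed CPM per kb of its class (bars, adding to 100%) for AMPA, kainate and NMDA receptors in each of the 12 libraries. The share of Gria2 stays between 28.2% and 56.3%, and Grik2 reaches 30.3% of the kainate class in the T4 GAL1+ library.

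NMDA receptor RNA was mostly that of Grin3a, a subunit that binds glycine and lowers calcium passage. Grin3a was at 6.05, 5.56 and 5.42 in PDGFRA+, at 5.60, 4.82 and 4.02 in PDGFRA-, at 4.31, 2.62 and 2.77 in GAL1+ and at 6.05, 5.91 and 5.98 in GAL1- libraries. Grin1, the subunit that every NMDA receptor needs, was at 3.03, 2.86 and 2.71, at 3.04, 1.58 and 1.35, at 1.48, 0.10 and 0.41 and at 2.81, 3.04 and 3.16 in the same order. Each was lower in the GAL1+ than in the GAL1- and PDGFRA+ libraries without overlap.

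Grin3a fell by 2.75 (SE 0.30, adjusted p = 8.3e-05) and Grin1 by 2.34 (SE 0.37, adjusted p = 0.000529) from GAL1- to GAL1+ cells. Grin2c fell by 1.97 (SE 0.27) and Grin2d by 1.16 (SE 0.30), also called. PDGFRA+ cells were higher than GAL1+ cells by 2.44 in Grin3a, 2.20 in Grin1, 1.58 in Grin2c and 1.27 in Grin2d. Against PDGFRA- cells the differences were 0.86 in Grin3a, 0.88 in Grin1 and 0.70 in Grin2d, with unadjusted p of 0.0180, 0.0395 and 0.0420 and adjusted p of 0.339 to 0.411.

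The subunits best known from neurons, Grin2a and Grin2b, were not called in any comparison. Grin2b was at 5.58 to 95.1 reads in the 12 libraries. Grin2a was at 0 reads in the T4 GAL1+ library and at 89.5 reads in the T5 GAL1- library, and like Gria1 it was highest in T5 (1.42, 0.79 and 1.86 log2 CPM in PDGFRA+, GAL1+ and GAL1- libraries) except among the PDGFRA- libraries, where it was at 0.29 in T3 and -0.45 in T5. The height of Grin2a in T5 is not independent of a filter described with T5 below. Per kb, Grin3a made up 54.6% to 73.5% of NMDA RNA and Grin1 12.8% to 19.6%.

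Delta receptor RNA was lower in GAL1+ cells too. Grid1 was at 5.82, 5.61 and 5.43 in PDGFRA+, at 5.34, 4.81 and 4.51 in PDGFRA-, at 4.50, 2.27 and 2.73 in GAL1+ and at 5.83, 5.81 and 5.96 in GAL1- libraries. Its GAL1+ libraries were below all others. It fell by 2.70 (SE 0.37, adjusted p = 0.000232) from GAL1- to GAL1+ cells, and PDGFRA+ cells were 2.45 higher than GAL1+ cells. Grid2ip was 2.73 lower in GAL1+ than in GAL1- cells (SE 0.43) and 2.65 higher in PDGFRA+ than in GAL1+ cells, both called.

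Among metabotropic receptors Grm5, which signals through Gq to release calcium from stores, held 73.8% to 97.9% of the class per kb. Grm5 was at 7.98, 7.50 and 7.35 in PDGFRA+, at 7.49, 6.78 and 5.50 in PDGFRA-, at 6.29, 4.73 and 4.82 in GAL1+ and at 8.13, 7.89 and 7.87 in GAL1- libraries. It fell by 2.68 from GAL1- to GAL1+ cells (SE 0.32, adjusted p = 0.000118) and was 2.33 higher in PDGFRA+ than in GAL1+ cells (adjusted p = 0.00156). Against PDGFRA- cells it was 1.02 higher, with an unadjusted p of 0.00994 and an adjusted p of 0.305.

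Grm3, the next in level by its mean, was at 0.05, 0.63 and -0.66 in PDGFRA+, at 1.23, 1.73 and -0.97 in PDGFRA-, at -0.14, 0.20 and 0.41 in GAL1+ and at -0.10, 1.62 and 1.17 in GAL1- libraries. The populations overlapped, and Grm3 was called in no comparison, nor were Grm4 and Grm7. Grm4 was 1.04 lower in GAL1+ than in GAL1- cells at an unadjusted p of 0.0306 (adjusted p = 0.0522).

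Grm6, known as the glutamate receptor of retinal ON bipolar cells, was the receptor gene that went against the others. It was at 0.24, 0.19 and -2.41 in PDGFRA+, at -3.49, -1.20 and -2.62 in PDGFRA-, at 0.12, -1.19 and 0.12 in GAL1+ and at -5.32, -2.33 and -2.96 in GAL1- libraries, and every GAL1+ library was above every GAL1- library. Only PDGFRA+ and GAL1+ libraries held more than 1 CPM of it. Its row thus passed the filter of 1 CPM in 3 or more samples through groups where it was high. Its differences from GAL1- cells are not independent of that filter. The difference of 3.22 (SE 1.00, adjusted p = 0.0200) rested on few reads, namely 18, 5 and 13 in the GAL1+ and 0.2, 4.25 and 2.67 in the GAL1- libraries of T3, T4 and T5. Pooled over the 3 tumors, 36 reads against 7 gave a ratio of 9.37 in CPM, with a 95% interval of 4.11 to 24.9 that covers counting error only. The call was lost without T3, where the difference was 2.11 (adjusted p = 0.156), and without T5, where it was 3.29 (adjusted p = 0.0581).

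GABA-A receptor genes were split, with 5 of 10 lower in GAL1+ than in GAL1- cells and 5 not called. Gabrg1, a gamma subunit found in glia, was at 4.82, 3.72 and 3.56 in PDGFRA+, at 4.20, 2.83 and 1.82 in PDGFRA-, at 3.02, 0.96 and 1.25 in GAL1+ and at 5.04, 4.22 and 4.12 in GAL1- libraries. Its PDGFRA+ and GAL1- libraries lay above all GAL1+ libraries.

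Gabrg1 fell by 2.71 (SE 0.29, adjusted p = 7.3e-05), Gabra3 by 2.97 (SE 0.63, adjusted p = 0.00280), Gabra2 by 1.70 (SE 0.24, adjusted p = 0.000286) and Gabrg3 by 1.37 (SE 0.42, adjusted p = 0.0192) from GAL1- to GAL1+ cells. PDGFRA+ cells were higher than GAL1+ cells by 2.62 in Gabra3, 2.29 in Gabrg1 and 1.41 in Gabra2, and Gabrg3 just missed the call (1.14, adjusted p = 0.0576). Against PDGFRA- cells Gabrg1 was 1.09 higher, with an unadjusted p of 0.00410 and an adjusted p of 0.254. Gabrb2 was 1.65 lower in GAL1+ than in GAL1- cells at an unadjusted p of 0.0431 (adjusted p = 0.0699).

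Gabra4, Gabrb1 and Gabrr2 had means of -1.93 to 0.34 log2 CPM and were called in no comparison. Their highest read numbers in any library were 35, 46.3 and 36. Summed per kb, GABA-A RNA was 13.5 to 19.5 CPM per kb in PDGFRA+, 4.80 to 16.6 in PDGFRA-, 4.49 to 6.27 in GAL1+ and 18.7 to 20.1 in GAL1- libraries.

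GABA-B receptors need both of their subunits, and the RNA of both was lower in GAL1+ cells. Gabbr1 was at 5.36, 5.71 and 6.21 in PDGFRA+, at 5.20, 6.47 and 5.36 in PDGFRA-, at 4.68, 4.85 and 4.84 in GAL1+ and at 5.53, 6.20 and 6.42 in GAL1- libraries. Its GAL1+ libraries were below all others with little spread. Gabbr1 fell by 1.26 (SE 0.27, adjusted p = 0.00286) and Gabbr2 by 2.42 (SE 0.37, adjusted p = 0.000450) from GAL1- to GAL1+ cells, and PDGFRA+ cells were 0.97 and 2.11 higher than GAL1+ cells. Gabbr2 was also 1.18 higher in PDGFRA+ than in PDGFRA- cells (unadjusted p = 0.0104, adjusted p = 0.306). Per kb Gabbr2 made up 23.7% ± 4.02 of the pair for PDGFRA+, 14.7% ± 10.8 for PDGFRA-, 13.0% ± 6.04 for GAL1+ and 24.0% ± 3.37 for GAL1- libraries (SD, n = 3).

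Some calls were lost when a tumor was left out and fewer libraries were fitted. Between GAL1+ and GAL1- cells Grik2 was at -1.33 (adjusted p = 0.174) and Gabrg3 at -1.41 (0.124) without T3, and Grik2 at -0.88 (0.261) and Grin2d at -0.87 (0.0838) without T5. Between PDGFRA+ and GAL1+ cells the differences without T3 were 1.12 in Gabbr1 (adjusted p = 0.107), 3.05 in Gabra3 (0.0713), 1.82 in Grik1 (0.0569) and 1.35 in Grin2d (0.0886), each larger than with all 3 tumors. Without T5 they were 0.78 in Gabbr1 (0.0806) and 1.07 in Grin2d (0.0692). Without T4, Gabrb2 was called between GAL1+ and GAL1- cells (-2.38 on the log2 scale, adjusted p = 0.00759) and Gabrg3 between PDGFRA+ and GAL1+ cells (1.54, adjusted p = 0.0279).

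Markers of cell types moved with these receptor genes. From GAL1- to GAL1+ cells all 10 OPC markers fell (median -2.74), and all 8 leukocyte markers (median 4.44) and all 10 microglia and macrophage markers (median 5.41) rose. PDGFRA+ cells had all 10 OPC markers higher (median 2.35) and all 8 leukocyte markers lower (median -1.60) than GAL1+ cells. The 10 OPC markers include Pdgfra, whose level in PDGFRA+ cells is not independent of the sort. In such bulk samples fewer cells of a type and less RNA per cell cannot be told apart, and the part of cell makeup in the receptor differences was not tested. All 8 endothelial markers rose in GAL1+ compared with GAL1- cells as well (median 2.44), 7 of 8 mature oligodendrocyte markers fell and 1 rose, and 4 of 8 astrocyte markers fell. Between PDGFRA+ and PDGFRA- cells all 8 mature oligodendrocyte markers were lower in PDGFRA+ cells at an unadjusted p under 0.05 (median -1.94), none of them past the adjusted threshold. Within each tumor the receptor median from GAL1- to GAL1+ cells (-1.39, -2.32 and -2.31 in T3, T4 and T5) stood beside an OPC median of -1.73, -3.28 and -3.28.

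Neuron markers were low but present. Of 15 listed, 11 were measured and 5 were called lower in GAL1+ than in GAL1- cells, with none higher. Their summed CPM was 44.2 to 121 in PDGFRA+, 44.1 to 74.1 in PDGFRA-, 11.7 to 51.8 in GAL1+ and 62.9 to 158 in GAL1- libraries. Rbfox3, which encodes the neuronal nuclear protein NeuN, was between 0.59 and 35.8 reads in the 12 libraries. The part of neuronal RNA in the receptor levels was not tested.

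RNA of the proteins that accompany these receptors was examined next. Of 10 measured AMPA auxiliary genes, which encode proteins that traffic and tune AMPA receptors, 9 were lower in GAL1+ than in GAL1- cells, with a median of -2.44. Cacng4 (gamma-4) fell by 3.0 (SE 0.35, adjusted p = 0.000105), Cacng7 by 2.77 and Shisa7 by 2.43. In PDGFRA+ cells 8 of the 10 were higher than in GAL1+ cells (median 2.12). Both kainate auxiliary genes followed, with Neto1 2.53 and Neto2 1.81 lower in GAL1+ than in GAL1- cells.

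Scaffold genes of excitatory synapses were lower in 12 of 18 cases and higher in 1 case in GAL1+ compared with GAL1- cells, with a median of -1.35. Dlgap3 (-2.39), Shank2 (-2.34) and Dlg4, which encodes PSD-95 (-1.39), were among the 12, while Homer3 was 0.55 higher. On the inhibitory side 5 of 7 genes were lower, among them Nlgn2 (-2.35) and Gphn, which encodes the scaffold gephyrin (-1.13), and Gabarap was 1.33 higher. Of 6 genes of GABA transport and metabolism 5 were lower, with Gad1, which makes GABA, at -2.29 and Abat, which breaks it down, at -2.15.

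Genes that handle glutamate divided. Of 9 measured, 4 were lower and 4 higher in GAL1+ than in GAL1- cells. The 4 that fell encode glutamate and neutral amino acid transporters of the Slc1 family, namely Slc1a2 (-2.54), Slc1a1 (-2.49), Slc1a4 (-2.05) and Slc1a3 (-1.61). Among those that rose were Slc7a11 (2.52), the cystine and glutamate exchanger, Glul (2.13), glutamine synthetase, and Glud1 (0.58), glutamate dehydrogenase. Both groups turned around between PDGFRA+ and GAL1+ cells, with Slc7a11 at -1.44 and Glul at -1.05, again against the same GAL1+ libraries.

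For the enzymes of RNA editing, Adarb1 (ADAR2, which edits the Q/R codon of Gria2) was at 5.27, 5.08 and 5.24 in PDGFRA+, at 4.88, 4.91 and 3.61 in PDGFRA-, at 4.84, 4.61 and 4.46 in GAL1+ and at 5.19, 5.37 and 5.43 in GAL1- libraries. It was 0.69 lower in GAL1+ than in GAL1- cells, which missed the call (adjusted p = 0.0520), and Adar differed by 0.17 (adjusted p = 0.326). Adarb2, which has no known editing activity, was 1.99 lower (adjusted p = 0.0136). Of the delta receptor ligands 2 of 4 were measured, and Cbln1 was 2.19 lower in GAL1+ cells (adjusted p = 0.0354) while Cbln2 was not called.

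In T4 a group of receptor genes left the common order, and these genes were singled out after their values were seen. Grik2 was at 6.87 in the T4 PDGFRA- and 5.88 in the T4 GAL1+ library, against 4.64 and 4.56 in the T3 and T5 PDGFRA- and 3.55 and 2.68 in the T3 and T5 GAL1+ libraries. Gabrb2 was at 3.76 and 3.10 and Gabrg3 at 4.40 and 3.12 in the T4 PDGFRA- and T4 GAL1+ libraries, so that both were raised in the same libraries. Not every beta or gamma GABA-A subunit gene was. In the T4 GAL1+ library Gabrg1 was at 0.96 against 3.02 in T3 and 1.25 in T5. Gabrb1 was at -1.845 there against 0.14 and 0.21.

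Some other receptor genes did not share the rise in T4. Grik3 was at 7.10 in the T4 PDGFRA- and 4.96 in the T4 GAL1+ library, within the range of the T3 and T5 libraries of each population. In the T4 PDGFRA- library 8 receptor genes were more than 1 above both other tumors, against 5.43% of all genes, and in the T4 GAL1+ library 4 were, against 1.97%. In the T4 PDGFRA+ library none were, and in the T4 GAL1- library 1 was. Falls were seen too. In the T4 GAL1+ library Gabra3, Gabra4, Gabrb1, Grin2a, Grin2b, Grm4 and Grm6 were more than 1 below both other tumors. Each held at most 8.5 reads there. In the T4 PDGFRA- library Grin2a was as far below. The share of all genes that fell so far is not given. Aspa, a mature oligodendrocyte marker, was at 3.09 and 2.42 in the T4 PDGFRA- and T4 GAL1+ libraries against -0.73 to -0.03 in the T3 and T5 libraries of those populations, and Gja1, an astrocyte marker, was at 7.84 and 7.01 against 4.07 to 4.91. Their lists did not move as a whole. Of 8 mature oligodendrocyte markers 1 was more than 1 above both other tumors in the T4 PDGFRA- library and none was as far below, while in the T4 GAL1+ library 2 were above and 2 (Mog and Opalin) below. Of 8 astrocyte markers 2 were above in the T4 PDGFRA- library, and 1 was above and 1 (Fgfr3) below in the T4 GAL1+ library. Cacng3 and Cbln2 were also high there, at 2.72 and 1.41 and at 3.49 and 2.71. The rise of these named genes was not confined to those libraries. In the T4 GAL1- library Aspa was at 1.08 against -4.215 in T3 and -2.82 in T5, and Gja1 at 5.91 against 2.29 and 5.27. Cacng3 was at 0.65 there against -2.45 and -4.04, and Cbln2 at 1.975 against -0.515 and -0.38. With 1 library per population and tumor this has no replicate, and the part of other cell types in it was not tested.

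**Figure D4:**
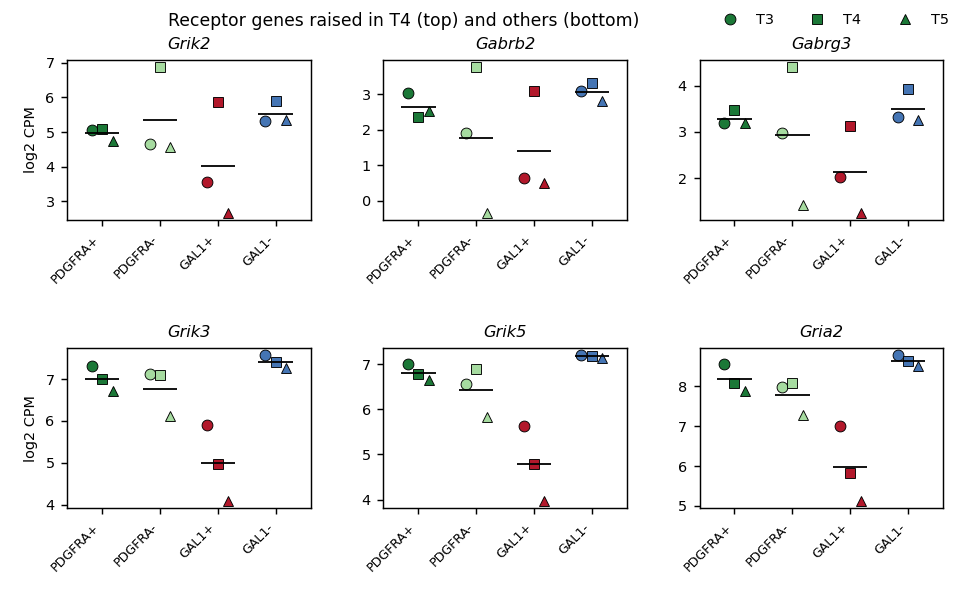
Log2 CPM (vertical axis, scaled for each gene) by sorted population for 3 receptor genes raised in T4 PDGFRA- and T4 GAL1+ libraries (top row) and 3 others (bottom row), with a symbol for each tumor (circle T3, square T4, triangle T5) and a line at the mean of 3 libraries. Grik2 reaches 6.87 in the T4 PDGFRA- library, and Grik3 shows no such rise in T4.

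In T5 a different group stood out, also picked after the values were seen. Gria1, Grin2a and Grm7 were more than 1 above both other tumors in the PDGFRA+, GAL1+ and GAL1- libraries of T5, where 3, 4 and 4 receptor genes met that mark against 2.77%, 3.86% and 2.83% of all genes. In the T5 PDGFRA- library 1 receptor gene (Grm7) met it, against 8.99% of all genes, and 11 were more than 1 below both other tumors, against 6.79%. Grm7, a presynaptic autoreceptor in neurons, was at 1.64, 0.65 and 1.84 in those libraries and at -1.33 to 0.26 in the T3 and T4 libraries of the same populations. The neuron markers Gad2 (3.42, 2.29 and 3.64, against -2.33 to 0.35) and Nefl (5.45, 4.29 and 5.81, against -2.33 to 1.42) were highest in the same T5 libraries. Of all 11 neuron markers measured, 3, 4 and 3 were more than 1 above both other tumors in the T5 PDGFRA+, GAL1+ and GAL1- libraries, and 1 (Gad1, in GAL1+) was as far below. In the T5 PDGFRA- library 2 were above and 3 below. Gad2, Grin2a and Rbfox3, a neuron marker counted here, exceeded 1 CPM in fewer than 3 libraries outside T5. Their rows thus passed the filter of 1 CPM in 3 or more samples through T5. Their height in T5 is not independent of that filter. The part of the neuron markers in the receptor levels was not tested.

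The bases before the transcription start were read for the members with an entry in the RefSeq promoter table (GRCm38.p6), since AMPA and kainate genes moved together. Of the 35 members 23 had an entry, and windows of 250 bases before the start are used. Gria2 is shown because it is known for an RE1 element, to which the repressor REST binds, before its start, and Grik5 as the gene with the most RNA per kb.
Gria2, chr3:80802836-80803085, minus strand, with the reverse complement of GGACAGC in capitals: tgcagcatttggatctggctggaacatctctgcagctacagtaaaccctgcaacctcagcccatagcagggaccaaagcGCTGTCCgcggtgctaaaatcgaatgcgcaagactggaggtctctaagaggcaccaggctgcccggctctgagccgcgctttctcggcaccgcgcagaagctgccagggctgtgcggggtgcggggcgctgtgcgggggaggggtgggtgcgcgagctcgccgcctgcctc
Grik5, chr7:25072370-25072619, minus strand, with GGGCGG in capitals: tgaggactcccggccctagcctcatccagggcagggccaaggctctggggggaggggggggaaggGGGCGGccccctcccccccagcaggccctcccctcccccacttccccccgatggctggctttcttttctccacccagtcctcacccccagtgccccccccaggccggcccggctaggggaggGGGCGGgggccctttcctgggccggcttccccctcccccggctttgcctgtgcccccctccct
The RE1 core GGACAGC, searched on both strands, was found in 1 of the 23 (Gria2, 171 bases before the start) and in 5.28% of 32851 promoter windows of this length. GGGCGG, the GC box, was found in 13 of the 23 and in 32.7% of all windows, and Grik5 held 2 copies on the strand shown. None of the 23 held the E box CAGCTG, found in 13.0% of all windows, nor the E box CAGATG (14.4%), nor the E box CATATG (3.46%), nor the exact letters of the second RE1 part CAGCACC (5.73%). The search allowed no mismatch. A member counted when any of its windows held the letters, while the percentages are over single windows, so the 2 are unlike units. Close to the core in the Gria2 window stands ggtgcta, which differs at 1 base from the reverse complement of CAGCACC. These are letters in a window and no evidence of binding.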

How the data were processed

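RNA of sorted EGFR+ cells was made into stranded total RNA libraries. The authors trimmed reads with fastp, aligned them with STAR to mm39, counted them on exons with featureCounts (multi-mapping reads as fractions), dropped genes not above 1 CPM in 3 or more samples, scaled libraries by TMM and ran voom. Its log2 CPM output, for 18180 genes and 12 samples, is what the authors deposited. Reads per gene were recovered from them with the voom offset of 0.5. Of the protein-coding symbols of GENCODE M21 that match the rule, 35 of 47 have a row, and the other 12 were not analysed here. Some members, listed genes and an allele of the model are not reported here by name. They stay in the counts, medians and sums.

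All 12 libraries were fitted with limma 3.58.1 in R 4.3.3 (population plus tumor, trended variance, 6 residual degrees of freedom), tested on simulated data first. Tumor numbers in the labels pair the libraries. Deviations from the population means correlated between libraries of the same tumor in all 18 pairs (r = 0.140 to 0.662). CPM per kb used GENCODE M21 exon lengths. Library values were given for the 2 highest of each class (1 in classes of 2) and for any gene called against the majority, and differences for members with an unadjusted p under 0.05. Genes outside that rule are said to be so. The members, marker and pathway lists were chosen with earlier results of these data known. Alternatives were other designs, weights, scalings, filters, a pseudocount of 1, and leaving out each tumor. Drawings used matplotlib 3.10.9.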

Additional observations from a re-analysis of the deposited data

How the results depend on the processing

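No difference of a single gene with an unadjusted p under 0.05 changed sign under any alternative run. Class medians changed sign in 6 cases, all between PDGFRA+ and PDGFRA- or PDGFRA+ and GAL1- cells, where limma on all 12 libraries called no receptor gene. Among these the metabotropic median between PDGFRA+ and PDGFRA- cells went from 0.14 to -0.65 with a filter at log2 CPM above 1 in 3 samples, which removed Grm4 and Grm6, and the GABA-A median from 0.54 to -0.06 without T5. The number of receptor genes called without the replicate block (no pairing by tumor) was 20 for GAL1+ with GAL1- cells, 16 for PDGFRA+ with GAL1+ cells and 0 for each of the other comparisons. In the first 2 of these that fit called 8392 and 3154 of all genes, against 10578 and 6900 with the block. It called 612 of all genes between PDGFRA+ and GAL1- cells and 0 between PDGFRA+ and PDGFRA- cells. The fit lost the calls of Gabrg3, Grik2 and Grin2d between GAL1+ and GAL1- cells. Between PDGFRA+ and GAL1+ cells it lost those of Gria4, Gabbr1, Grin2c and Grin2d. Leaving out each tumor gave 21 to 24 and 16 to 23 calls, and 0 for the others. Of all genes, 8071 to 8478 were then called for GAL1+ with GAL1- and 2110 to 4863 for PDGFRA+ with GAL1+ cells. For PDGFRA+ with GAL1- cells 0 of all genes were called without T3, 1126 without T4 and 717 without T5. For PDGFRA+ with PDGFRA- cells 0 of all genes were called each time. With limma fitted to the samples of the 2 groups only, 8 genes were called between PDGFRA+ and GAL1- cells, where that fit called 3386 of all genes, and the cause was not tested. Quantile normalization lost the call of Grm6 (adjusted p = 0.0805). A pseudocount of 1 brought the receptor median to -1.42 and 1.09 in the main pair of comparisons. Shares without division by length, added after the data were seen, put Gria2 at 46.0% to 58.3% of AMPA RNA by population. Depth limits Grm6, Grin2a and Gabra4.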
